A study of Sorghum bicolor with 12 samples.

Results

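The enzymes that drive C4 photosynthesis were examined through 10 sorghum genes, of the 33817 annotated loci with a probe on the array. They encode 3 carbonic anhydrases, the C4 phosphoenolpyruvate (PEP) carboxylase, PEP carboxylase kinase, the C4 NADP-malate dehydrogenase and its neighbour in the genome, the C4 NADP-malic enzyme and its neighbour, and pyruvate phosphate dikinase. The genes were chosen by locus name, and each was read from the probe of its first annotated transcript. RNA came from entire 14-day-old seedlings of the grain sorghum cultivar BTx623 and the sweet sorghum cultivar Keller, which stood in 5% sucrose solution for 0 h, 2 h or 6 h. Each of the 6 groups of cultivar and time had 2 one-colour arrays, which the study calls biological replicates, and the slides, of which there were 3, carried 4 arrays each. All samples, those at 0 h included, carry the same sucrose label. Since the arrays analysed here include no untreated seedlings at the later times, the passage of time, handling and sucrose cannot be told apart.

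In C4 grasses such as sorghum, carbon dioxide is fixed first in the mesophyll cells of the leaf and is then released around Rubisco in the bundle sheath cells. Carbonic anhydrase turns carbon dioxide into bicarbonate, PEP carboxylase joins it to PEP to give oxaloacetate, and NADP-malate dehydrogenase in the mesophyll chloroplast reduces this to malate. NADP-malic enzyme in the bundle sheath chloroplast releases the carbon dioxide again, and pyruvate phosphate dikinase in the mesophyll rebuilds PEP from the returning pyruvate. PEP carboxylase kinase phosphorylates PEP carboxylase and makes it less sensitive to inhibition by malate. In maize, genes of this pathway are known to be expressed at high levels in green leaves and to be repressed by sugars in leaf protoplasts.

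Several of these genes are copies that lie side by side. On chromosome 3, the carbonic anhydrase genes Sb03g029170 (57310079 to 57320518), Sb03g029180 (57324572 to 57329061) and Sb03g029190 (57331084 to 57333985) lie on the plus strand, separated by 4053 bp and 2022 bp. The C4 NADP-malic enzyme gene Sb03g003230 (3374323 to 3379566) follows its neighbour Sb03g003220 (3357017 to 3362737) on the same strand after 11585 bp. The C4 PEP carboxylase gene Sb10g021330 lies on the minus strand of chromosome 10 (47131018 to 47137553). These coordinates are those of the gene lists of the study, which name no genome build. The locus names of the 2 NADP-malate dehydrogenase genes, Sb07g023920 and Sb07g023910, place them next to each other on chromosome 7. Probe sequences were not analysed here, and whether the probe of a gene also binds the transcript of its copy was not tested. The study designed probes for loci annotated in BTx623 and reports sequence differences in genes of Keller. Whether these change the signal of a probe in Keller was not tested. In cultivar differences, probe binding and the amount of RNA therefore cannot be told apart.

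All 10 genes were well above background on all 12 arrays, and none of their spots was saturated. The highest processed signals belonged to pyruvate phosphate dikinase, from 40385 to 141470 on the arrays, and the lowest to PEP carboxylase kinase, from 240 to 1097, but signals of different probes depend on the probe and are not compared as levels. The 75th percentile of the processed signal ran from 323 to 677 between arrays. In the following, the level of a gene is therefore its log2 processed signal minus the log2 of that percentile on the same array, and a change is a difference of levels on the log2 scale. A gene was called in a comparison at a Benjamini-Hochberg adjusted p under 0.05 over all probes tested, from the linear model of limma, together with a change of at least 2-fold. The number of arrays limits the precision of every value.

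After 6 h, 5 of the 10 genes were called lower and none was called higher, as the mean of both cultivars. The 5 were the 3 carbonic anhydrases and both NADP-malic enzyme genes. Over all 31949 probes tested in this comparison, 5.45% were called lower. The median change of the 10 genes was -1.10, against 0.02 for all probes. A further 3 genes, both NADP-malate dehydrogenases and pyruvate phosphate dikinase, fell with an adjusted p under 0.05 but by less than 2-fold, so that 8 of 10 fell when no minimum fold was asked, against 7.06% of all probes. In 8 of the 10 genes, all 4 arrays at 6 h were below all 4 arrays at 0 h, which held for 9.60% of the probes tested. Since RNA was taken from entire seedlings, fewer green cells and less RNA of these genes per cell cannot be told apart.

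**Figure D1:**
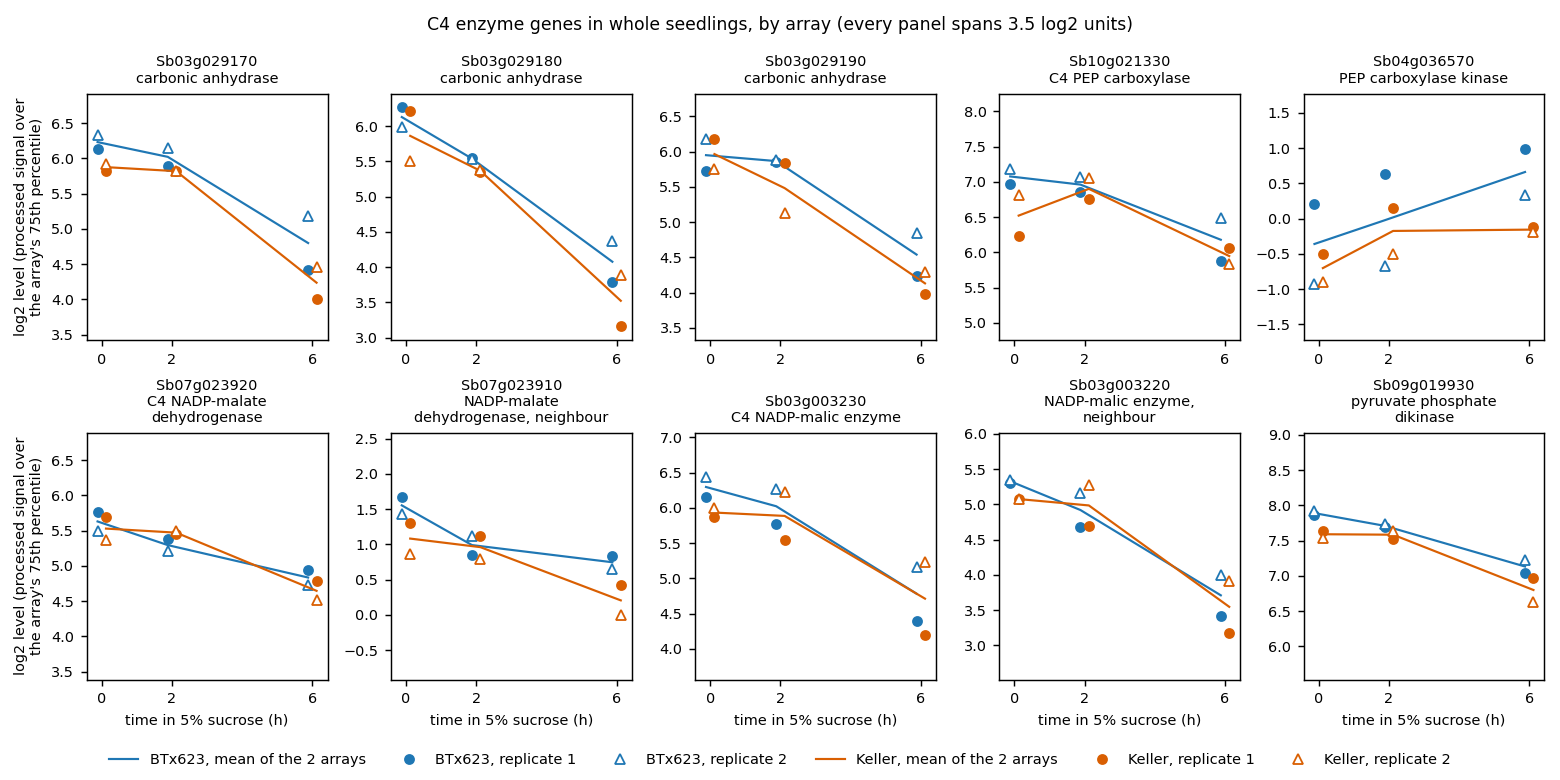
Levels of the 10 genes (log2 processed signal over the 75th percentile of the array) at 0 h, 2 h and 6 h in 5% sucrose, with a point for each of the 12 arrays and a line through the mean of the 2 arrays of a group. The carbonic anhydrases and NADP-malic enzymes are lowest at 6 h in both cultivars, whereas PEP carboxylase kinase is not.

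Carbonic anhydrase supplies the bicarbonate that PEP carboxylase uses. The largest fall among the 10 genes was that of the carbonic anhydrase gene Sb03g029180. In BTx623 its level was 6.27 and 5.99 at 0 h, 5.55 and 5.53 at 2 h, and 3.79 and 4.37 at 6 h. In Keller it was 6.22 and 5.51 at 0 h, 5.35 and 5.38 at 2 h, and 3.16 and 3.89 at 6 h. Thus the 4 arrays at 6 h lay below all other arrays, and replicate 1 was the lower one at 6 h in both cultivars. The change from 0 h to 6 h was -2.20 (SE 0.24), or 4.58-fold lower, with an adjusted p of 0.0013 by limma.

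The other carbonic anhydrases of the cluster fell less far. The level of Sb03g029170 in BTx623 was 6.13 and 6.33 at 0 h, 5.89 and 6.15 at 2 h, and 4.42 and 5.18 at 6 h. In Keller it was 5.82 and 5.93 at 0 h, 5.82 on both arrays at 2 h, and 4.01 and 4.46 at 6 h. Its arrays at 0 h and 2 h overlapped, and all arrays at 6 h lay below them. This gave a change of -1.54 at 6 h (SE 0.21, adjusted p = 0.0028, limma).

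The level of Sb03g029190, which the study's lists annotate as a carbonic anhydrase with a chloroplast precursor, was 5.72 and 6.17 at 0 h, 5.85 and 5.88 at 2 h, and 4.24 and 4.84 at 6 h in BTx623. In Keller it was 6.17 and 5.76 at 0 h, 5.84 and 5.13 at 2 h, and 3.97 and 4.29 at 6 h. All arrays at 6 h were below those at 0 h and 2 h, although replicate 2 of Keller at 2 h came close to the highest of them. The change at 6 h was -1.62 (SE 0.23, adjusted p = 0.0038, limma).

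The array held further probes for other transcripts of these loci. Both further probes of Sb03g029170 were called lower at 6 h, with changes of -1.63 (SE 0.23) and -1.69 (SE 0.17), and so was the further probe of Sb03g029180, with -2.05 (SE 0.20). The further probe of Sb03g029190 was well above background on only 2 of 12 arrays and was not tested, so that the value of this locus rests on 1 probe. A carbonic anhydrase of the adjacent locus Sb03g029200 was above background on 7 of 12 arrays, and its change of -0.22 (SE 0.41, adjusted p = 0.774, limma) did not pass the test.

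NADP-malic enzyme releases carbon dioxide from malate in the bundle sheath. The C4 gene Sb03g003230 had levels of 6.15 and 6.44 at 0 h, 5.77 and 6.27 at 2 h, and 4.40 and 5.16 at 6 h in BTx623. In Keller the levels were 5.86 and 6.00 at 0 h, 5.54 and 6.23 at 2 h, and 4.19 and 5.23 at 6 h. Replicate 1 was lower than replicate 2 in all 6 groups, and the arrays at 6 h were nevertheless all below those at 0 h and 2 h. Between 0 h and 6 h its change was -1.37 (SE 0.30, adjusted p = 0.019, limma). This call was lost without replicate 1 of BTx623 at 6 h (-1.18), of Keller at 0 h (-1.40) or of Keller at 6 h (-1.11). Such a fit leaves a single array in a group, and fewer probes were called lower over the whole array as well. It therefore cannot tell whether the call rests on single arrays.

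Its neighbour Sb03g003220 had levels of 5.31 and 5.35 at 0 h, 4.68 and 5.15 at 2 h, and 3.42 and 4.00 at 6 h in BTx623. In Keller they were 5.08 and 5.07 at 0 h, 4.70 and 5.27 at 2 h, and 3.18 and 3.91 at 6 h. Its arrays at 6 h were also below all others. It had fallen by 1.57 at 6 h (SE 0.24), or 2.98-fold lower, with an adjusted p of 0.0046 by limma.

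PEP carboxylase catalyses the first fixation, and the levels of the C4 gene Sb10g021330 were 6.98 and 7.18 at 0 h, 6.86 and 7.06 at 2 h, and 5.87 and 6.48 at 6 h in BTx623. In Keller they were 6.23 and 6.81 at 0 h, 6.75 and 7.05 at 2 h, and 6.06 and 5.83 at 6 h. The groups at 0 h and 6 h overlapped through replicate 1 of Keller at 0 h, the lowest array at that time, whereas all arrays at 6 h were below those at 2 h. The change from 0 h to 6 h was -0.74 (SE 0.21) and did not pass the test (adjusted p = 0.053, limma). With a block for the replicate number the adjusted p was 0.012, at the same change of less than 2-fold.

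NADP-malate dehydrogenase makes the malate that is carried to the bundle sheath. The C4 gene Sb07g023920 had levels of 5.76 and 5.50 at 0 h, 5.38 and 5.21 at 2 h, and 4.94 and 4.73 at 6 h in BTx623. In Keller they were 5.70 and 5.36 at 0 h, 5.45 and 5.49 at 2 h, and 4.78 and 4.51 at 6 h. The arrays at 6 h lay below all others, and the change of -0.84 (SE 0.16) had an adjusted p of 0.012 by limma.

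For the neighbour Sb07g023910 the levels were lower on every array, as read from a different probe, namely 1.67 and 1.43 at 0 h, 0.86 and 1.12 at 2 h, and 0.84 and 0.65 at 6 h in BTx623. In Keller they were 1.30 and 0.86 at 0 h, 1.12 and 0.80 at 2 h, and 0.42 and -0.01 at 6 h. Arrays at 6 h overlapped those at 2 h, and the highest at 6 h was barely below the lowest at 0 h. The change from 0 h to 6 h was -0.84 (SE 0.18, adjusted p = 0.020, limma), and the further probe of this locus gave -0.79 (SE 0.14).

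Pyruvate phosphate dikinase regenerates PEP. The levels of Sb09g019930 were 7.86 and 7.92 at 0 h, 7.69 and 7.73 at 2 h, and 7.03 and 7.23 at 6 h in BTx623. In Keller they were 7.64 and 7.54 at 0 h, 7.53 and 7.64 at 2 h, and 6.96 and 6.64 at 6 h. The arrays at 6 h were below all others, and the replicates of a group differed by at most 0.33. Its change at 6 h was -0.77 (SE 0.16, adjusted p = 0.017, limma), and the further probes of the locus gave -0.75 and -0.54, the latter with an adjusted p of 0.056. In maize, the corresponding gene is known to give rise to a chloroplast and a cytosolic form, and whether these probes separate such forms was not tested.

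PEP carboxylase kinase was the member of the group with a positive change. The levels of Sb04g036570 were 0.21 and -0.93 at 0 h, 0.63 and -0.68 at 2 h, and 0.98 and 0.34 at 6 h in BTx623. In Keller they were -0.50 and -0.91 at 0 h, 0.15 and -0.50 at 2 h, and -0.12 and -0.19 at 6 h. Replicate 1 was above replicate 2 in all 6 groups, by up to 1.31 in BTx623 at 2 h, and the times overlapped. The change at 6 h was 0.78 (SE 0.36, 95% interval -0.03 to 1.6) and did not pass the test (adjusted p = 0.186, limma). With a block for the replicate number the adjusted p was 0.027 at the same change of less than 2-fold, and with a block for the slide the change was 1.01 and was called (adjusted p = 0.032, limma).

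The change from 0 h to 6 h was also computed between arrays with the same replicate number. For the 9 genes other than PEP carboxylase kinase it was negative in both replicates of both cultivars. For PEP carboxylase kinase it was positive in all of them, with 0.77 and 1.27 in BTx623 and 0.37 and 0.72 in Keller. It was positive at 2 h as well, with 0.42 and 0.26 for the BTx623 replicates and 0.65 and 0.40 for the Keller replicates. The change of the carbonic anhydrase Sb03g029180 was -2.48 and -1.62 in the replicates of BTx623 and -3.06 and -1.62 in those of Keller. That of the NADP-malic enzyme gene Sb03g003230 was -1.75 and -1.28 in BTx623 and -1.68 and -0.77 in Keller. The malate dehydrogenase gene Sb07g023920 had nearly the same change in each replicate, from -0.92 to -0.77, while the changes of PEP carboxylase ran from -1.10 to -0.17. Both arrays of such a pair were on the same slide in replicate 1 of Keller and in replicate 2 of BTx623, and there the mean changes were -2.34 for Sb03g029180, -1.77 for Sb03g029190, -1.48 for Sb03g029170, -1.48 for Sb03g003230 and -1.62 for Sb03g003220. For PEP carboxylase the mean of these within-slide changes was -0.43.

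**Figure D2:**
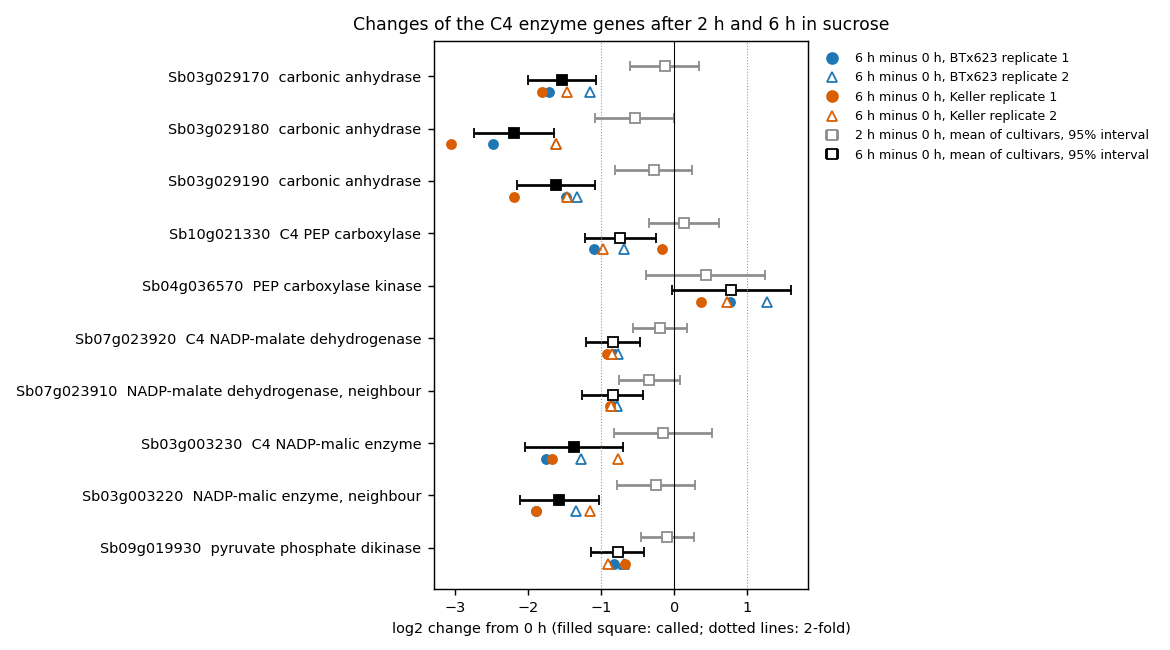
Change of each gene from 0 h on the log2 scale. Squares with 95% intervals give the mean of both cultivars at 2 h (grey) and at 6 h (black, filled where called), and the coloured points below give the change at 6 h in each replicate of each cultivar; the 5 filled squares at 6 h lie between -2.20 and -1.37.

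After 2 h, none of the 10 genes was called, while 2.44% of all probes were called in either direction. The changes of the 10 genes ranged from -0.54 for Sb03g029180 to 0.43 for PEP carboxylase kinase, and the lowest adjusted p was 0.273 for Sb03g029180 (limma). From 2 h to 6 h, 4 genes were called lower, which were the 3 carbonic anhydrases (from -1.65 to -1.34) and the NADP-malic enzyme gene Sb03g003220 (-1.32), against 0.811% of all probes. These calls were lost when any array at 2 h or 6 h was left out. Such a fit leaves a single array in a group and lost most calls over all probes as well. It therefore cannot tell whether the calls rest on single arrays. Over all probes, 259 were called lower from 2 h to 6 h, against 661 with a slide block and 818 with a replicate block. There were 169 with no filter, 155 with no variance trend and 28 without scaling, but 275 with quantile normalization. For Sb03g003230 the change over this interval was -1.21 and did not pass the test (adjusted p = 0.087, limma). PEP carboxylase had a change of 0.13 at 2 h and of -0.87 from 2 h to 6 h, and neither passed the test (adjusted p = 0.800 and 0.087, limma).

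Taken in each cultivar alone, 3 genes were called lower at 6 h in BTx623 and 3 in Keller, against 1.98% and 1.54% of all probes. The carbonic anhydrases Sb03g029170 and Sb03g029180 were called in both, with changes of -1.43 and -2.05 in BTx623 and of -1.64 and -2.34 in Keller. Sb03g003220 was called in BTx623 (-1.62) with -1.53 in Keller, and Sb03g029190 was called in Keller (-1.83) with -1.41 in BTx623. With a block for the replicate number, 5 genes were called in each cultivar. In these fits 1771 of 31949 probes were called lower in BTx623 and 1479 of 31950 in Keller. Calls within a cultivar were lost in fits that left out an array, also in some without an array of the other cultivar. In all these fits fewer probes were called over the whole array as well. They therefore cannot tell whether the calls within a cultivar rest on single arrays.

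The comparison of the cultivars asked whether grain and sweet sorghum differ in the sucrose time course. The difference between the changes of Keller and BTx623 at 6 h ranged from -0.47 (SE 0.72) for PEP carboxylase kinase to 0.32 (SE 0.43) for PEP carboxylase, and none of the 10 was called. None of the 31949 probes was called in this comparison either (0.00%), with 318 at an unadjusted p under 0.05, of which none was among the 10 genes. The intervals were wide, and for 7 of the 10 genes the 95% interval included a 2-fold difference. For Sb03g029180 the difference was -0.29 with a 95% interval from -1.37 to 0.80, and for Sb07g023920 it was -0.09 with an interval from -0.82 to 0.65.

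As the mean over the times, Keller and BTx623 did not differ by the test in any of the 10 genes, while 5.00% of all probes were called in either direction. The mean level was below that of BTx623 for all 10 genes, with differences from -0.44 to -0.04 and a median of -0.27 against 0.06 for all probes, but with a block for the slide the NADP-malic enzyme genes turned to 0.07 for Sb03g003230 and 0.06 for Sb03g003220. The largest difference was that of PEP carboxylase kinase, -0.44 (SE 0.29, adjusted p = 0.504, limma), followed by the carbonic anhydrase Sb03g029170, -0.37 (SE 0.17, adjusted p = 0.293), and the malate dehydrogenase neighbour Sb07g023910, -0.35 (SE 0.15, adjusted p = 0.269). At single times none of the 10 genes was called, and the share of all probes called there is not given. The confidence interval included a 2-fold difference for 7 of the 10 genes at 0 h, 3 at 2 h and 6 at 6 h. For these genes the absence of a call cannot exclude such a difference. On the arrays of one slide, Keller minus BTx623 was -0.71 at 0 h, -1.13 at 2 h and -0.53 at 6 h for PEP carboxylase kinase and -0.29, 0.46 and 0.07 for the C4 NADP-malic enzyme gene. The pair at 2 h sets replicate 2 of Keller against replicate 1 of BTx623, and in all groups replicate 2 was the lower one for PEP carboxylase kinase and the higher one for the C4 NADP-malic enzyme gene. Between arrays of the same replicate number at 2 h, the values were -0.48 and 0.17 for PEP carboxylase kinase and -0.23 and -0.05 for the C4 NADP-malic enzyme gene.

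Neighbouring copies were set against each other through the difference of their log2 signals on the same array, from which the scaling of the array drops out. Only the variation of this difference between arrays is read, because its size depends on the probes. The cultivars were compared by a two-sided exact permutation test of the cultivar labels within time points, with 216 arrangements and a smallest possible p of 0.0093, for 5 pairs of copies. The differences over time are given as values, since the smallest p that permuting the times within cultivars allows is 0.0556.

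For the NADP-malic enzymes, Sb03g003230 minus Sb03g003220 lay between 0.79 and 1.32 on the 12 arrays, while each of the genes fell by more than 2-fold at 6 h. The mean was 0.91 ± 0.13 at 0 h and 1.12 ± 0.16 at 6 h (SD, n = 4 each). It was 1.05 ± 0.11 in BTx623 and 0.97 ± 0.19 in Keller (SD, n = 6 each), and this difference of -0.07 was within the spread between arrays (exact permutation, p = 0.389). Between arrays of the same replicate number, the difference of the copies was larger at 6 h than at 0 h in all 4 cases, by 0.14 and 0.07 in BTx623 and by 0.22 and 0.39 in Keller.

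For the NADP-malate dehydrogenases, Sb07g023920 minus Sb07g023910 was 4.16 ± 0.18 in BTx623 and 4.47 ± 0.13 in Keller (SD, n = 6 each). In BTx623 it was 4.09 and 4.07 at 0 h, 4.53 and 4.08 at 2 h, and 4.10 and 4.08 at 6 h. In Keller it was 4.40 and 4.50 at 0 h, 4.33 and 4.69 at 2 h, and 4.36 and 4.52 at 6 h. Both Keller arrays were above both BTx623 arrays at 0 h and at 6 h, and at 2 h the cultivars overlapped through replicate 1 of each. The difference between the cultivars of 0.31 had an exact permutation p of 0.0185, which became 0.093 after Benjamini-Hochberg adjustment over the 5 pairs. The p rose to 0.065 without replicate 2 of BTx623 at 2 h and to 0.074 without replicate 2 of Keller at 2 h (exact permutation). From 0 h to 6 h the difference of the copies changed by less than 0.01, since both genes had a change of -0.84. All these values rest on the first probe of Sb07g023910. At 2 h the level of its further probe was 1.12 and 1.12 in BTx623 and 0.91 and 0.89 in Keller. The difference of the copies was not computed with that probe.

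Among the carbonic anhydrases, Sb03g029170 minus Sb03g029180 ran from -0.39 to 0.42 at 0 h, from 0.34 to 0.62 at 2 h and from 0.58 to 0.85 at 6 h, so that all 4 arrays at 6 h were above all 4 at 0 h. The mean moved by 0.66 between these times, and that of Sb03g029180 minus Sb03g029190 moved by -0.57. Between arrays of the same replicate number, the former moved by 0.77 and 0.47 in BTx623 and by 1.24 and 0.16 in Keller. The latter moved by -0.99 and -0.29 in BTx623 and by -0.86 and -0.15 in Keller. Both thus moved further in replicate 1. In contrast, the mean of Sb03g029170 minus Sb03g029190 moved by 0.09, with replicates from -0.23 to 0.38. Between the cultivars, none of the 3 differences was larger than the spread between arrays (exact permutation, p = 0.722, 0.713 and 0.50).

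**Figure D3:**
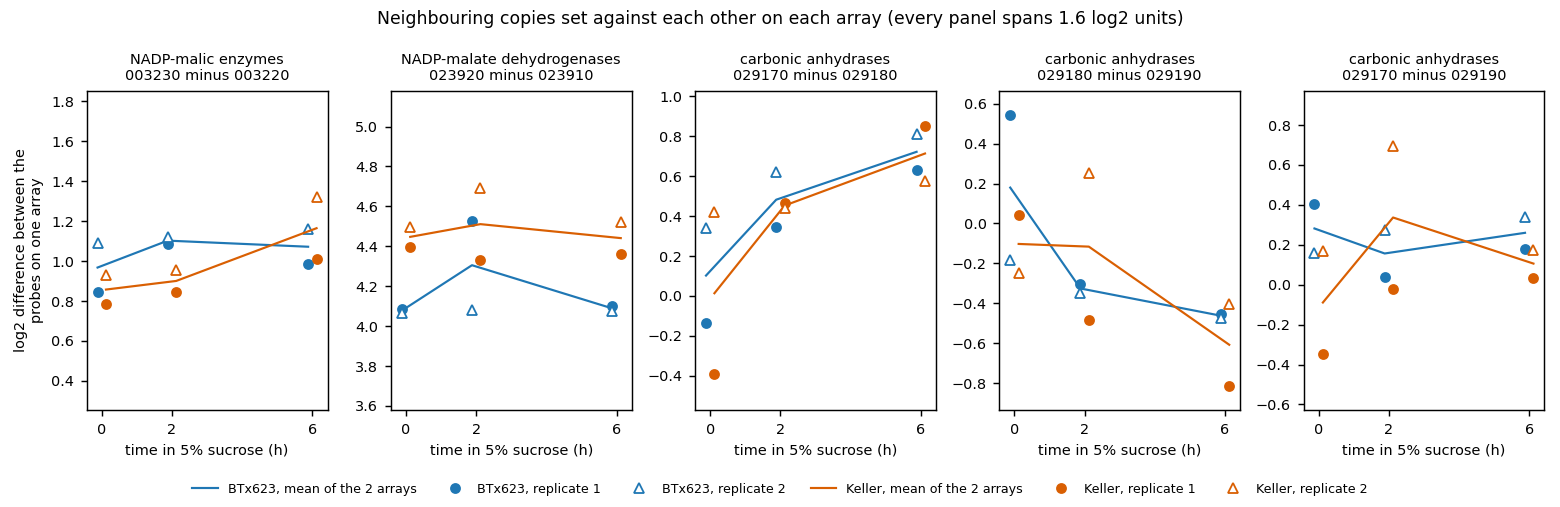
Difference of the log2 signals of neighbouring copies on each of the 12 arrays, by time in 5% sucrose, with a line through the mean of the 2 arrays of a group. The NADP-malic enzymes stay between 0.79 and 1.32, the NADP-malate dehydrogenases have means of 4.16 in BTx623 and 4.47 in Keller, and Sb03g029180 is lower against both other carbonic anhydrases at 6 h than at 0 h.

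The other genes of these reactions were taken from a prepared list of loci, to which loci were added by name from the annotations in the study's gene lists. There were 29 such loci, of which 28 were tested, and at 6 h 3 of the 28 were called lower and 1 higher, against 5.45% and 3.67% of all probes. The 3 were the pyruvate phosphate dikinase regulatory proteins, enzymes that switch pyruvate phosphate dikinase off and on in the dark and the light. They form a row of loci on chromosome 2, and Sb02g035200, which lies between the annotated ones, carries only the name of its rice counterpart. The level of Sb02g035200 was 3.31 and 3.35 at 0 h, 2.80 and 3.13 at 2 h, and 1.84 and 1.90 at 6 h in BTx623. In Keller it was 4.27 and 4.25 at 0 h, 3.69 and 3.85 at 2 h, and 2.66 and 2.91 at 6 h. The arrays of Keller were above those of BTx623 at each time, and both cultivars were lowest at 6 h. The change at 6 h was -1.47 for Sb02g035200 (SE 0.15), -1.34 for Sb02g035190 (SE 0.14) and -1.28 for Sb02g035210 (SE 0.14).

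Keller exceeded BTx623 by 0.87 to 0.89 in these 3 loci as the mean over the times (adjusted p from 0.0014 to 0.0017, limma), which was below 2-fold. Without scaling between arrays the differences were 0.68 to 0.71 and did not pass the test (adjusted p from 0.459 to 0.520, limma). Whether the 3 probes bind each other's transcripts, or bind equally in both cultivars, was not tested. In the 10 C4 enzyme genes, by comparison, the Keller minus BTx623 values lay between -0.44 and -0.04.

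The PEP carboxylase called higher at 6 h was Sb04g008720, which is annotated as similar to PEP carboxylase 1. Its level was 0.60 and 1.61 at 0 h, 2.29 and 2.32 at 2 h, and 2.50 and 2.59 at 6 h in BTx623. In Keller it was 1.04 and 1.80 at 0 h, 2.10 and 2.59 at 2 h, and 2.26 and 2.68 at 6 h. All arrays at 2 h and 6 h were above those at 0 h, and replicate 1 was lowest at 0 h in both cultivars. The change at 6 h was 1.25 (SE 0.27, adjusted p = 0.019, limma), against -0.74 for the C4 gene on the same arrays. The call was lost without scaling between arrays (adjusted p = 0.192), in the fit of only the arrays compared (adjusted p = 0.051, limma) and in 5 of the 12 fits that left out an array, which were those without replicate 1 of BTx623 or Keller at 0 h, either replicate of BTx623 at 6 h or replicate 2 of Keller at 6 h. The change lay between 1.0 and 1.5 over all settings. In the 5 fits that left out an array, fewer probes were called higher over the whole array as well. They leave a single array in a group and cannot tell whether the call rests on single arrays. Of the 4 remaining PEP carboxylases, Sb07g014960, named here after its value was seen, rose by 0.93 (SE 0.24, adjusted p = 0.037, limma), and the others, with changes from -0.31 to 0.39, did not pass the test.

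Among the other families at 6 h, none of the 5 other malate dehydrogenases passed the test, with changes from -0.26 to 0.27, and the 3 other malic enzymes ranged from -0.57 to 0.46. One of these, the mitochondrial NAD-malic enzyme Sb01g017790, fell by 0.57 (SE 0.15, adjusted p = 0.039, limma), and it is named after its value was seen. The other pyruvate phosphate dikinase, the cytosolic form Sb01g031660, was above background on 7 of 12 arrays, and its change of 1.53 (SE 0.57, adjusted p = 0.112, limma) did not pass the test. The PEP/phosphate translocators, which carry PEP across the chloroplast envelope, had changes from -0.71 to 0.47 with none past the test. The plastidic dicarboxylate carrier Sb02g027290 was lower in Keller than in BTx623 by 1.32 over the times (SE 0.17, adjusted p = 0.0011, limma), the only one of the 28 called between the cultivars, against 5.00% of all probes, and its change at 6 h was -0.12. Whether the probe of this carrier binds equally in both cultivars was not tested. After 2 h none of the 28 was called.

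Genes of the Calvin cycle and of light harvesting were read as other genes of green tissue. The Rubisco small subunit gene Sb05g003480 had a change of -0.52 at 6 h (SE 0.17, adjusted p = 0.086, limma), and 2 of the 3 chlorophyll-binding proteins of light harvesting were tested, with -0.33 and -0.28, so that none of these genes passed the test. The remaining light-harvesting locus was above background on none of the arrays. Of the 2 chloroplast phosphoglycerate kinases, Sb09g024340, also named after its value was seen, fell by 0.91 (SE 0.21, adjusted p = 0.023, limma) and the other had a change of 0.05. Whether the values of these genes follow the amount of green tissue was not tested. The part of a change in green tissue in the values of the C4 enzyme genes was not tested either.

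**Figure D4:**
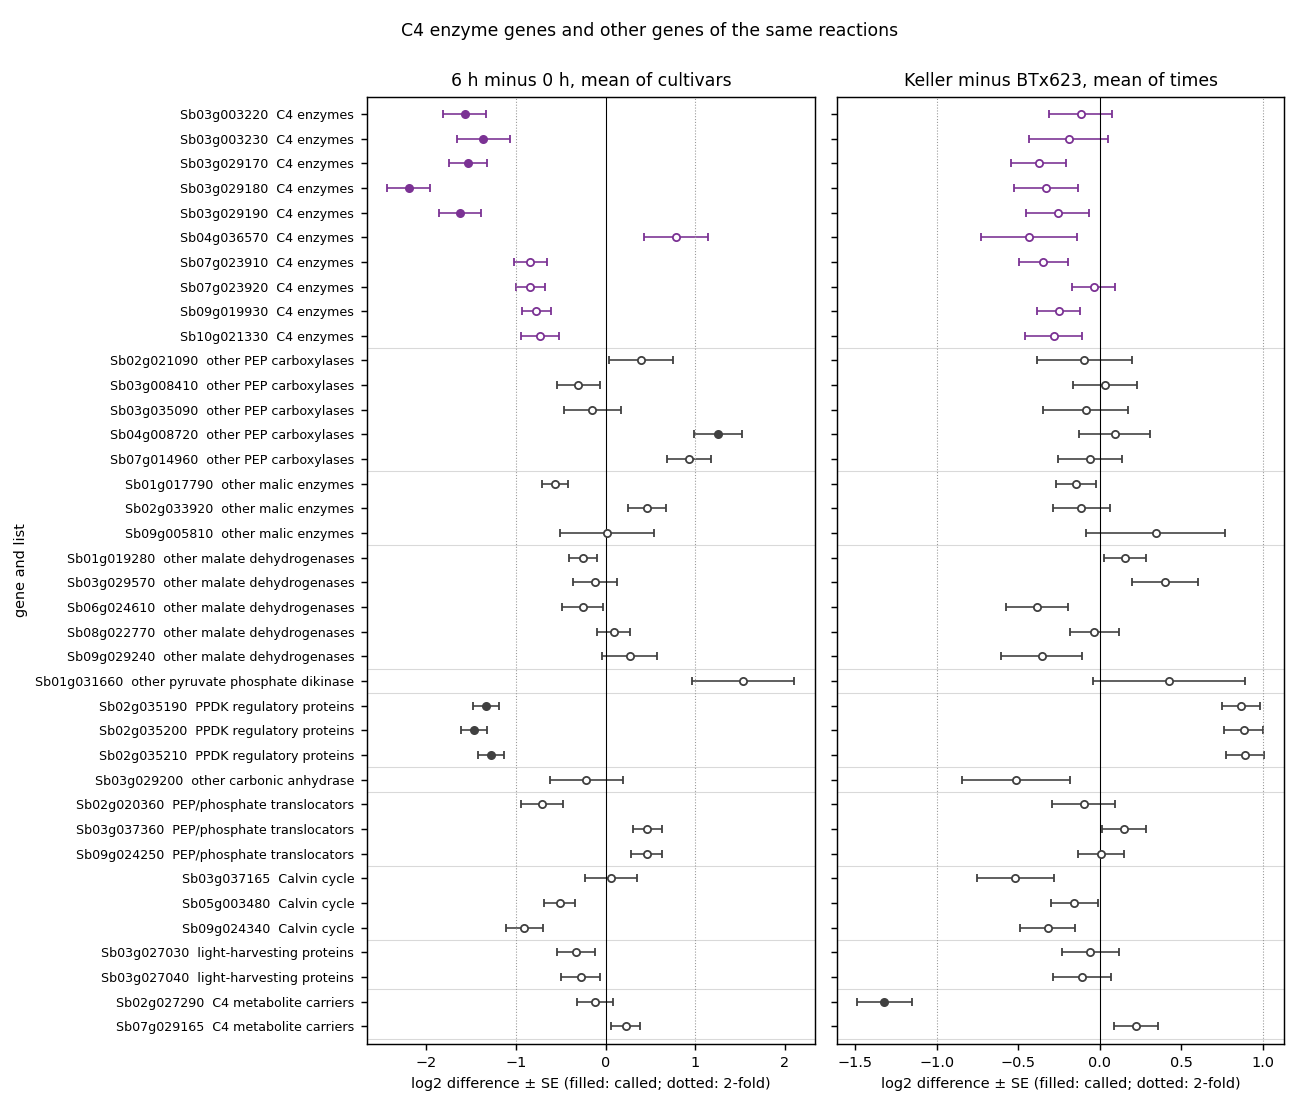
Change from 0 h to 6 h (left) and Keller minus BTx623 (right) on the log2 scale, with SE, for the 10 C4 enzyme genes (purple) and 28 other genes of the same reactions (grey), with filled points for called genes. The 3 regulatory proteins of pyruvate phosphate dikinase lie between -1.47 and -1.28 on the left and near 0.9 on the right, and the PEP carboxylase Sb04g008720 is at 1.25 on the left.

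The 10 genes differed in how they varied over the 12 arrays. Pearson's r of the levels is given as a description, because the points share time course, replicates and slides. It was 0.98 between the NADP-malic enzyme genes, between 0.95 and 0.96 among the carbonic anhydrases and 0.87 between the malate dehydrogenases, and PEP carboxylase kinase had negative values with all 9 others. For the 5 called genes, the annotated loci with the most similar pattern were sought among 23205 probes well above background on all arrays. For Sb03g003230, the closest was its neighbour Sb03g003220 (r = 0.98), followed by Sb01g005650, which the study's lists annotate as an aldehyde oxidase, and Sb04g002190. For Sb03g029190, the closest were Sb03g029170, here read from a further probe of that locus, and Sb03g029180, each with r = 0.95. For Sb03g029170 they were Sb03g029180, here read from its further probe, Sb03g040910 and Sb03g042600, with r from 0.97 to 0.98. For Sb03g029180 they were Sb01g045750, Sb07g000620 and Sb02g032440 (r = 0.98 each), and for Sb03g003220 they were Sb01g021190, Sb03g040910 and Sb09g021610 (r = 0.99 each).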

How the data were processed

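RNA was labelled with Cy3 and hybridised to custom Agilent arrays with 41977 probes. The authors deposited, for each spot, the intensity that Agilent Feature Extraction 10.7.1.1 calls the processed signal. It is linear and unscaled across arrays, and its ratio to the background-subtracted signal varied with the position on the array. Other columns deposited by the authors flag spots as well above background, saturated or outliers. A value table of the same signals, matched by row order, was equal within 0.5%.

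Outlier spots were left out, spots of a probe averaged, and log2 signals reduced by the array's log2 75th percentile. A probe was kept when some group had it well above background on both arrays (31950 probes). limma 3.58.1 (R 4.3.3) was fitted over the 12 arrays with 6 group means and a variance trend; each comparison was adjusted on its own. An empty estimate left 31949 probes in some comparisons. The script was tested on simulated data. Permutations used Python 3.11.15 with numpy 2.4.6.

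Same-numbered arrays deviated together in all 15 pairs of groups (r from 0.278 to 0.660), which was taken as pairing; it rests on the data alone and goes partly with the slide. The labels number the repeats without saying what a number shares. The main fit does not include this pairing, and a block for the replicate number is given where it changes a call.

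Members and lists were chosen with earlier results of these data known. Besides the 10 genes, at most 3 called loci of a list in each direction and comparison were named, and the 3 loci of closest pattern. Lists by name used the study's annotations; photosystem, root barrier and clock lists gave no usable loci. The alternatives are other background corrections, scalings, filters, blocks and thresholds, and each array left out.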

Additional observations from a re-analysis of the deposited data

Results flagged for a closer look

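The C4 PEP carboxylase gene Sb10g021330 moved in opposite directions in the cultivars at 2 h. From 0 h to 2 h its change was -0.12 and -0.11 in the replicates of BTx623 and 0.52 and 0.24 in those of Keller. The difference between the changes was 0.49 (SE 0.43, 95% interval -0.47 to 1.46) and did not pass the test (adjusted p = 1.0, limma). Replicate 1 of Keller at 0 h was the lowest of the 4 arrays at that time, and without it the change of the gene at 2 h as the mean of both cultivars turned from 0.13 to -0.01.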

How the results depend on the processing

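The number of genes called at 6 h was 5 under normexp, no filter, a filter over all 12 arrays, the replicate block, no variance trend, the fit of only the arrays compared and the percentile over probes detected on all arrays. It was 4 with quantile normalization, 6 with a slide block, 8 with no minimum fold, 2 without scaling between arrays, and 4 to 5 with each array left out. Over all 31949 probes, 2515 were called lower at 6 h with the slide block, 2483 with the replicate block and 614 without scaling, against 1740. When arrays were not scaled, the median change of all probes was 0.13 at 6 h and 0.20 at 2 h, and the median cultivar difference was -0.12. At 2 h, 109 probes were then called higher and 53 lower, against 310 and 468. The SE of the 6 h change was then larger, with 0.39 against 0.21 for Sb03g029170 and 0.43 against 0.24 for Sb03g003220. Without scaling, Sb03g029170 (-1.43, adjusted p = 0.065), Sb03g003230 (-1.26, adjusted p = 0.195), Sb03g003220 (-1.46, adjusted p = 0.086), the PEP carboxylase Sb04g008720 (1.36, adjusted p = 0.192) and the 3 regulatory proteins lost their calls by limma, and Sb03g029180 and Sb03g029190 kept theirs in all 22 alternatives. For Sb03g003230 this also held with quantile normalization (-1.13, adjusted p = 0.074). The cause was not tested.

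Within BTx623, 5 genes were called with the replicate block or the slide block, 1 with quantile normalization or no filter, 0 without scaling or with only the arrays compared, and 0 to 2 with an array left out (0 without any one of the BTx623 arrays at 0 h or 6 h). Within Keller, the counts were 5 with either block, 0 without scaling or with only the arrays compared, and 0 to 3 with an array left out (0 without replicate 1 at 0 h or at 6 h). From 2 h to 6 h, the count of 4 was 5 with either block, 2 with quantile normalization, no filter or no variance trend, 0 without scaling, and 0 to 3 with an array left out. It was tried so after seeing the data. Here, calls over all probes moved likewise with the blocks, no filter, no variance trend or no scaling. Over all probes at 6 h, 1403 were called lower within BTx623 with the slide block and 1771 with the replicate block, against 633. In Keller these numbers were 1193 and 1479, against 493. In BTx623, quantile normalization gave 597 and no filter 515. Without scaling, 59 were called lower in BTx623 and 119 in Keller. With only the arrays compared, 0 of 30333 probes were called in BTx623 and 0 of 30763 in Keller. That fit therefore cannot decide on the calls of these genes. The counts at 2 h, between the cultivars and for the difference of the 6 h changes were 0 under every setting run.

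Signs turned for small values that had not passed the test. Between the cultivars these were Sb03g003230 (0.074) and Sb03g003220 (0.060) with the slide block. At 2 h, without scaling, they were Sb03g029170 (0.081), Sb03g003230 (0.054), Sb07g023920 (0.017) and Sb09g019930 (0.12, and 0.083 with quantile normalization). With an array left out, the cultivar difference ran from -0.24 to 0.0053 for Sb03g003220 and from -0.094 to 0.018 for Sb07g023920, and the 2 h change from -0.012 to 0.28 for Sb10g021330 and from -0.33 to 0.011 for Sb03g003230. The cultivar difference between copies ran from 0.23 to 0.38 for the malate dehydrogenases, and for the carbonic anhydrases from -0.18 to 0.093 (Sb03g029170 minus Sb03g029180), from -0.20 to 0.050 (Sb03g029180 minus Sb03g029190) and from -0.23 to 0.0037 (Sb03g029170 minus Sb03g029190). The dicarboxylate carrier fell short of 2-fold with normexp (-0.95). The settings for the genes outside the 10 were added after seeing the data. A group left with a single array was assumed to vary like the others.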
